A study of Mus musculus with 6 samples.

Results

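The genes described here encode the core and accessory subunits of Polycomb repressive complex 2 (PRC2). They were chosen by symbol: Ezh1, Ezh2, Eed, Suz12, Jarid2, Aebp2, Mtf2, Phf1, Phf19 and Rbbp7, 10 of the 23377 gene symbols in the count table, and all 10 passed the filter on low counts that left 13134 genes to test. Expression was measured by RNA-seq in sorted hair follicle stem cells of C57BL/6 mice, the cells that renew the hair. The groups were 2 libraries of the genotype Ring1a/b-/- (the knockout) and 2 wild-type libraries, each made from 3000 cells by SMART-seq2, a method that copies polyadenylated RNA over its full length and amplifies it by PCR. The sources used here do not give the sex and age of the mice, any Cre driver, the time since deletion, the number of animals per library or whether the 2 libraries of a genotype share animals. The p-values therefore speak of the spread among libraries, and that spread may be technical.

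PRC2 methylates histone H3 at lysine 27. Ezh1 and Ezh2 are its alternative catalytic subunits, Eed binds the mark and stimulates the enzyme, Suz12 is the scaffold, and Rbbp7 or its close paralogue Rbbp4 binds histones. Accessory subunits sort the complex into separate forms: one holds a Polycomb-like protein (Phf1, Mtf2 or Phf19), which helps it bind DNA, and the other holds Jarid2 and Aebp2. Ring1a and Ring1b, the proteins missing by genotype, are the alternative catalytic subunits of the partner complex PRC1, which ubiquitinates histone H2A; PRC1 and PRC2 are known to recruit each other.

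Total counts ran from 2785843 to 7740945 per library, with the knockout pair the deeper. The targeted genes, counted over the whole gene, do not check the genotype: Ring1 (Ring1a) stood at 15.5 and 18.4 CPM (counts scaled to a common library size) in the knockout against 31.9 and 29.4 in the wild type, and Rnf2 (Ring1b) at 151 and 153 against 144 and 87.8 CPM. All 14 follicle stem cell markers examined were expressed enough to test, and 9 had a positive and 5 a negative fold change. Runx1 was the 1 marker of that list past the edgeR threshold, which 0.0609% of all genes passed. It stood at 279 and 254 CPM in the knockout against 34.9 and 62.1 in the wild type (adjusted p = 0.0431). At an unadjusted p under 0.05 in edgeR 4 markers were higher and 1 lower, beside 16.6% of all genes in either direction. DESeq2, an alternative test, called 4 higher (Lgr5, Nfatc1, Runx1 and Sox9) and 1 lower (Krt15), beside 12.4%. Libraries did not overlap for 6 that were higher (24.8% of all genes) and 3 that were lower (22.3%). Lgr5 stood at 251 and 240 against 140 and 194 CPM and Nfatc1 at 38.8 and 33.98 against 0 and 2.34 CPM, while Krt15 stood at 303 and 250 against 417 and 362 CPM and Cd34 at 15.3 and 2.61 against 24.3 and 20.4 CPM. Markers of other cells differed between libraries: 14 leukocyte genes summed to 979 and 463 CPM in the knockout against 176 and 181 in the wild type, and 11 fibroblast genes to 483 and 317 against 769 and 988 CPM. Without Dcn, left out after its values were seen, the other 10 fibroblast genes summed to 211 and 159 against 175 and 558 CPM, so that wild-type replicate 2 alone stood apart. Of the 9 fibroblast genes tested 3 had a positive and 6 a negative fold change. Libraries did not overlap for 2 that were higher, Pdgfra and Pdgfrb (24.8% of all genes), and 1 that was lower, Dcn (22.3%). Pdgfra stood at 6.66 and 12.2 against 0.38 and 6.34 CPM and Pdgfrb at 3.23 and 17.4 against 0 and 1.33 CPM. At an unadjusted p under 0.05 in edgeR 1 was higher and 3 lower, beside 16.6% of all genes in either direction. Sums were 2.83 and 2.37 against 14.4 and 58.1 CPM for 7 endothelial genes and 187 and 133 against 194 and 197 CPM for 8 melanocyte genes. Kit gave most of the melanocyte sum, 117 and 87.0 against 127 and 109 CPM. Of the 5 melanocyte genes tested 1 had a positive and 4 a negative fold change. DESeq2 called 1, Mlana, lower, beside 12.4% of the genes it adjusted. Mlana stood at 0.20 and 0 against 4.18 and 13.0 CPM, and Pmel at 0.81 and 0.12 against 0 and 19.0 CPM. Of the endothelial sum in wild-type replicate 1, Tek gave 13.3 CPM. Pecam1, Cdh5 and Flt1 were at 0 in that library and at 11.7, 9.01 and 16.7 CPM in wild-type replicate 2. Among leukocyte markers Cd207 was at 0 in all 4 libraries and Cd3e had a count in wild-type replicate 1 alone. Ctss stood at 137 and 73.3 CPM in the knockout against 6.45 and 8.34 in the wild type. It was the 1 leukocyte marker past the edgeR threshold (adjusted p = 0.0444), beside 0.0609% of all genes. All 11 leukocyte genes tested had a positive fold change, and 8 did not overlap and were higher (24.8% of all genes). At an unadjusted p under 0.05 in edgeR there were 7, beside 16.6% of all genes. DESeq2 called 5 of the leukocyte genes higher, beside 12.4%. The part of these other cells in any value below was not tested, and in sorted pools fewer cells of a type and less RNA per cell cannot be told apart.

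None of the 10 PRC2 genes passed edgeR's quasi-likelihood test at an adjusted p under 0.05, where 8 of 13134 genes did (0.0609%). At an unadjusted p under 0.05 there were 2, Rbbp7 (lower in the knockout) and Phf1 (higher), beside 16.6% of all genes tested. DESeq2, used as an alternative, called 1 of the 10, Rbbp7, beside 12.4% of the genes it adjusted. A further alternative, limma-voom, called 0 of the 10 and 0 of all 13134 genes. Libraries of the genotypes did not overlap for 4 members, Ezh1 and Phf1 (higher in the knockout) and Ezh2 and Rbbp7 (lower), beside 24.8% of all genes higher and 22.3% lower; this share of members is near the background. Fold changes were positive for 5 members and negative for 5, with a median log2 fold change of -0.03 over the members and 0.03 over all genes tested. The median size of the change, without its sign, was 0.29 over the members and 0.42 over all genes.

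**Figure D1:**
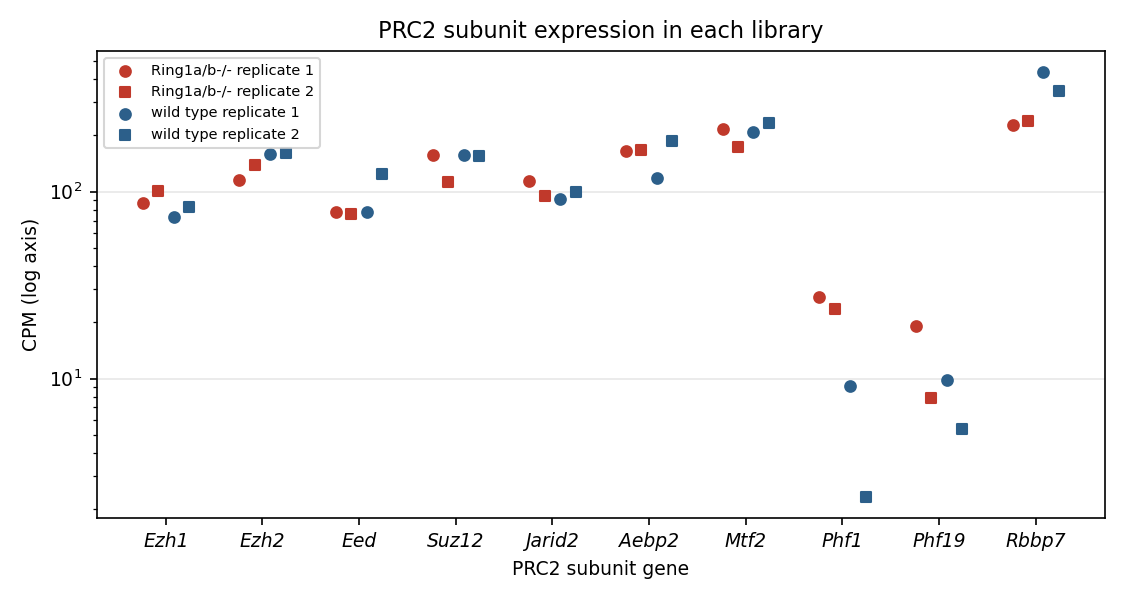
CPM of each PRC2 gene (log axis) in the 2 Ring1a/b-/- libraries (red) and the 2 wild-type libraries (blue); circles are replicate 1 and squares replicate 2. Phf1 and Phf19 lie below 30 CPM in all 4 libraries, and the colours separate for Ezh1, Ezh2, Phf1 and Rbbp7; counts are not scaled by transcript length, so heights compare libraries and not genes.

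The catalytic subunits had fold changes of opposite sign, and neither passed the test. Ezh2, the catalytic subunit known from dividing cells, stood at 115 and 139 CPM in the knockout against 158 and 161 in the wild type. Both knockout values lay below both wild-type values, with a log2 fold change of -0.33 ± 0.21 (SE; 95% interval -0.81 to 0.15; edgeR adjusted p = 0.497). Ezh1, the catalytic subunit known from resting and differentiated cells, stood at 86.8 and 100.2 CPM in the knockout against 73.3 and 83.1 in the wild type. Here both knockout values lay above both wild-type values, although knockout replicate 1 and wild-type replicate 2 were only a few CPM apart, and the log2 fold change was 0.26 ± 0.26 (interval -0.34 to 0.86; edgeR adjusted p = 0.718). With each library left out in turn Ezh2 ranged from -0.49 (without knockout replicate 2) to -0.20 (without knockout replicate 1), and Ezh1 from 0.14 (without knockout replicate 2) to 0.36 (without knockout replicate 1).

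Counts of both enzymes within a library do not depend on how libraries are scaled to each other. Ezh1 gave 43.0% of the summed Ezh1 and Ezh2 counts in knockout replicate 1 (95% Wilson interval 40.0 to 46.1) and 41.9% (39.7 to 44.2) in replicate 2. In the wild type it gave 31.7% (28.1 to 35.5) and 34.02% (30.7 to 37.5). The intervals, which allow for counting error but not for PCR, whose copies are not separate molecules, did not meet between genotypes. The log2 ratio of Ezh2 to Ezh1 was 0.44 ± 0.05 (SD, n = 2) in the knockout against 1.03 ± 0.11 in the wild type, a difference of -0.59. An exact two-sided permutation test gave p = 0.333, the smallest that 2 against 2 libraries allow, and 0.583 adjusted over the 7 ratios computed.

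Eed and Suz12, the subunits without which the enzyme is inactive, overlapped between genotypes. Eed stood at 77.9 and 75.9 CPM in the knockout against 77.5 and 124.8 in the wild type, so that 3 of the 4 libraries were alike and wild-type replicate 2 stood above them. Its log2 fold change of -0.40 ± 0.30 (edgeR adjusted p = 0.584) was -0.03 without that library and -0.69 without wild-type replicate 1. Suz12 stood at 157 and 113 CPM in the knockout against 156.1 and 155.8 in the wild type, where knockout replicate 2 alone was lower. Its log2 fold change of -0.21 ± 0.23 (edgeR adjusted p = 0.749) was -0.003 without knockout replicate 2 and -0.47 without knockout replicate 1. The 95% interval of the log2 fold change was -1.08 to 0.29 for Eed and -0.74 to 0.32 for Suz12, and both cover 0.

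**Figure D2:**
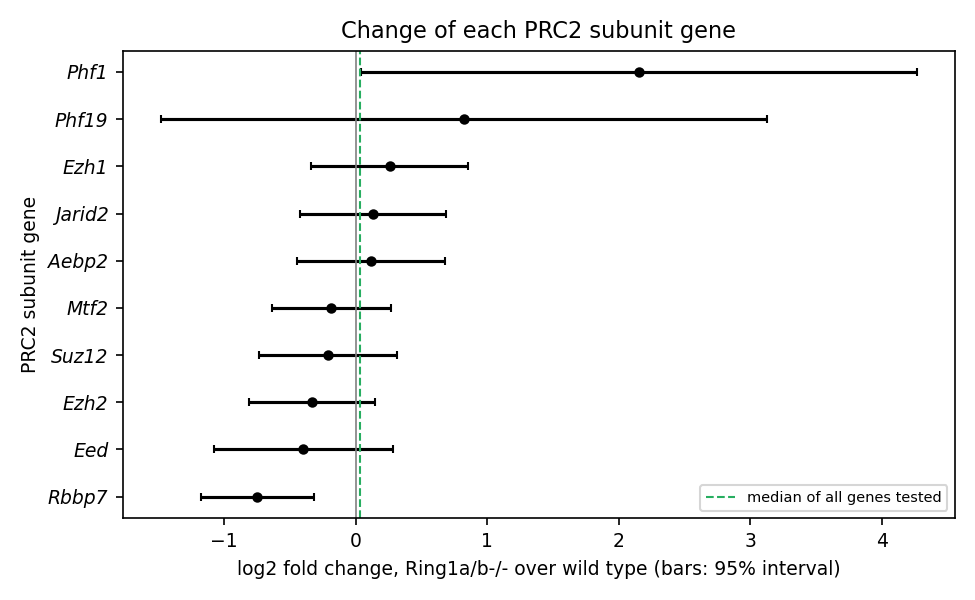
Fitted log2 fold change of each PRC2 gene, Ring1a/b-/- over wild type (n = 2 libraries each), with its 95% interval; the dashed line is the median of all genes tested, 0.03. The intervals of Phf1 and Rbbp7 do not cover 0 before adjustment, and those of Phf1 and Phf19 are the widest.

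Rbbp7, a histone chaperone that PRC2 shares with the NuRD, Sin3 and HAT1 complexes, had the lowest p of the 10 genes. It stood at 228 and 239 CPM in the knockout against 436 and 346 in the wild type, from 1128, 1916, 1149 and 1038 counts. The knockout libraries were close to each other and both lay below the lower wild-type library, a 1.68-fold difference with a log2 fold change of -0.75 ± 0.19 (interval -1.18 to -0.32; unadjusted p = 0.0037, edgeR adjusted p = 0.149). The call depended on the test: the adjusted p was 0.000582 in DESeq2 and 0.0148 in edgeR with no low-count filter, which called 4.26%. In the authors' deposited table Rbbp7 had a log2 fold change of -0.75 with an adjusted p of 0.000582 and no mark, since marks there begin at a size of 1 on the log2 scale. That table compares the same groups, and its values for Rbbp7 nearly equal those of DESeq2 here, so it is not separate support. With a smooth trend of fold changes on gene span and mean abundance taken out (the length and abundance trend), the log2 fold change of Rbbp7 was -0.30 (edgeR adjusted p = 0.649).

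Rbbp4, the paralogue that takes the same place in PRC2, stood at 168 and 190 CPM in the knockout against 283 and 182 in the wild type, with a log2 fold change of -0.38 ± 0.24 (edgeR adjusted p = 0.498). Its wild-type replicate 2 lay between the knockout libraries. Rbbp7 gave 57.5% and 55.7% of the summed Rbbp7 and Rbbp4 counts in the knockout against 60.7% and 65.5% in the wild type, and the intervals of knockout replicate 1 (55.3 to 59.7) and wild-type replicate 1 (58.5 to 62.8) met. The coding sequences of the pair are much alike, and the sources used here do not say how reads that fit both were counted. In the RefSeq annotation of GRCm38.p6 the end of the X-linked Rbbp7 overlaps Txlng, which stood at 43.4 and 85.9 CPM in the knockout against 32.3 and 55.1 in the wild type. Xist (36 and 26 against 46.7 and 75.4 CPM) was found in every library, and so were the Y-linked Ddx3y, Kdm5d, Eif2s3y and Uty. Ddx3y stood at 152 and 167 against 164 and 85.1 CPM. The log2 fold change was 0.36 for Ddx3y, 0.04 for Kdm5d, -0.15 for Eif2s3y and -0.24 for Uty, and the genotypes overlapped for each. The 397 X-linked genes tested had a median log2 fold change of -0.06.

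**Figure D3:**
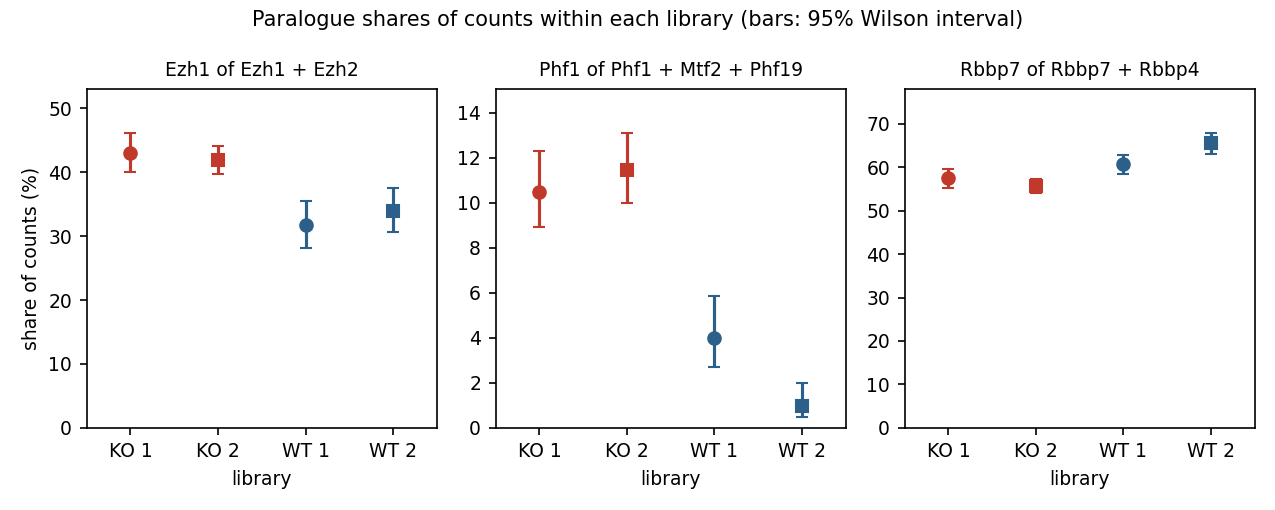
Share of counts (%) of Ezh1 among the catalytic subunits, Phf1 among the Polycomb-like subunits and Rbbp7 among the histone chaperones, in each library (KO, Ring1a/b-/-; WT, wild type), with 95% Wilson intervals for counting error. The intervals separate by genotype for Ezh1 and Phf1 and meet between replicate 1 of each genotype for Rbbp7.

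Among the Polycomb-like subunits, Phf1 had the largest fitted difference. Phf1 had 136 and 189 counts in the knockout against 24 and 7 in the wild type, which is 27.5 and 23.5 CPM against 9.11 and 2.34 CPM. Both knockout libraries lay above both wild-type libraries. The exact Poisson 95% intervals of the wild-type pair, 5.84 to 13.6 CPM and 0.939 to 4.81 CPM, did not meet. They allow for counting error but not for PCR copies, so they may be too narrow. The fitted difference was 4.46-fold, a log2 fold change of 2.16 ± 0.93 (interval 0.04 to 4.27; unadjusted p = 0.0464, edgeR adjusted p = 0.291). Its size turned on the wild-type libraries: leaving out wild-type replicate 1 gave a log2 fold change of 3.44 and leaving out replicate 2 gave 1.46. With the length and abundance trend taken out the log2 fold change of Phf1 was 1.63 (edgeR adjusted p = 0.611). In that setting 0 PRC2 genes, Phf1 and Rbbp7 included, had an unadjusted p under 0.05, beside 1303 of 13085 genes. The authors' deposited table marked Phf1 as higher, as it did 7.35% of the genes it adjusted; its adjusted p there was 0.0577 at a log2 fold change of 2.16.

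Mtf2, the Polycomb-like subunit with the most counts here, stood at 215 and 174 CPM in the knockout against 210 and 232 in the wild type. The genotypes overlapped, with a log2 fold change of -0.19 ± 0.20 (edgeR adjusted p = 0.739) that was -0.05 without knockout replicate 2, -0.35 without knockout replicate 1 and -0.0007 with the length and abundance trend taken out. Phf19 stood at 19.2 and 7.84 CPM in the knockout against 9.87 and 5.34 in the wild type, so knockout replicate 1 alone was high, and its log2 fold change of 0.83 ± 1.01 (edgeR adjusted p = 0.781) was 0.04 without that library, 1.31 without knockout replicate 2, 1.33 without wild-type replicate 1 and -0.07 with the length and abundance trend taken out. Of the summed counts of Phf1, Mtf2 and Phf19, Phf1 gave 10.5% (95% Wilson interval 8.94 to 12.3) and 11.5% (10.0 to 13.1) in the knockout against 3.99% (2.69 to 5.86) and 0.974% (0.472 to 2.00) in the wild type. Mtf2 gave 82.2% and 84.7% in the knockout against 91.7% and 96.8% in the wild type. The log2 ratio of Mtf2 to Phf1 was lower in the knockout by a difference of -2.65 (-1.60 when wild-type replicate 2 was left out and -3.71 when replicate 1 was), again with the smallest exact permutation p the design allows, 0.333.

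Jarid2, which links PRC2 to ubiquitinated H2A, stood at 114.1 and 95.1 CPM in the knockout against 91.5 and 99.4 in the wild type, a log2 fold change of 0.13 ± 0.24 (edgeR adjusted p = 0.875). Aebp2, its partner in the same form of the complex, stood at 165.6 and 166.4 CPM in the knockout against 119 and 187 in the wild type, a log2 fold change of 0.12 ± 0.25 (edgeR adjusted p = 0.893). The genotypes overlapped for both genes, and the sign of each turned when a library was left out: Jarid2 was at -0.006 without knockout replicate 1 and Aebp2 at -0.17 without wild-type replicate 1. With the length and abundance trend taken out Jarid2 was at -0.15. The log2 ratio of Jarid2 to Aebp2 was -0.67 ± 0.19 (SD) in the knockout against -0.64 ± 0.38 in the wild type, the smallest difference of the 7 ratios (exact permutation p = 1), which ranged from -0.30 to 0.24 with a library left out.

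Of 5 further PRC2-associated genes, 4 were tested and 0 passed in edgeR. At an unadjusted p under 0.05 there was 1, Epop, beside 16.6% of all genes tested. DESeq2 called 1, again Epop, beside 12.4% of the genes it adjusted. Epop, which joins PRC2 complexes that hold a Polycomb-like protein and is named here after its values were seen, stood at 32.9 and 26.5 CPM in the knockout against 5.32 and 7.68 in the wild type (163, 213, 14 and 23 counts, listed under its older symbol E130012A19Rik). The groups did not overlap, with a 4.55-fold difference and a log2 fold change of 2.19 ± 0.75 (edgeR adjusted p = 0.2). DESeq2 gave an adjusted p of 0.00705. The authors' deposited table, which compares the same groups and is not separate support, marked Epop as higher. Lcorl stood at 89.4 and 76.4 against 63.8 and 98.1 CPM. Ezhip, a PRC2 inhibitor known from germ cells, had 0 counts in all 4 libraries.

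Sequences are shown for the members that carry a match to a motif of cell cycle genes, and for Phf1 and Rbbp7, which had the lowest p-values. Of the 10 genes all had at least 1 of 14 promoters in the RefSeq table (GRCm38.p6, 250 bases before to 50 after each annotated start). The E2F motif, searched as TTTCGCGC, TTTGGCGC, TTTCCCGC or TTTGCCGC on both strands, was found for 3 of the 10 genes, in 3 of their 14 promoters, and for 2.61% of all 27025 genes, in 2.27% of 32851 promoters. The shares over all genes and promoters were not matched for CpG dinucleotides, which these motifs contain. No match was found for the other members, Rbbp7 among them. Each window below has 30 bases, with the match in capitals. The match begins 208 bases before the start of Phf19, 219 bases before that of Suz12 and 3 bases after that of Ezh2. The windows lie at chr2:34914166-34914195 (minus strand), chr11:79992876-79992905 (plus strand) and chr6:47595009-47595038 (minus strand).
Phf19: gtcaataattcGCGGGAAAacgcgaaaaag
Suz12: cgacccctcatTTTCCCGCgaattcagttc
Ezh2: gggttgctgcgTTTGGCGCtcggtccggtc
The 250 bases before the starts of Phf1 (chr17:26932877-26933126, plus strand) and Rbbp7 (chrX:162760122-162760371, plus strand) are given next. Capitals mark the GC box GGGCGG on either strand. Over the full promoter, with the 50 bases after the start, 35.7% of all promoters hold it. Rbbp7 has further GC boxes that begin 10 and 38 bases after the start and are not shown.
Phf1: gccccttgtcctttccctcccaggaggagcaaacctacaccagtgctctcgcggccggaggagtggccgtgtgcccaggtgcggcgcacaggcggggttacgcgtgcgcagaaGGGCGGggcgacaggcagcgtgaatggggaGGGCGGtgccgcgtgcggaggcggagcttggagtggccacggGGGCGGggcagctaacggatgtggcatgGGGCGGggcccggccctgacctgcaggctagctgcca
Rbbp7: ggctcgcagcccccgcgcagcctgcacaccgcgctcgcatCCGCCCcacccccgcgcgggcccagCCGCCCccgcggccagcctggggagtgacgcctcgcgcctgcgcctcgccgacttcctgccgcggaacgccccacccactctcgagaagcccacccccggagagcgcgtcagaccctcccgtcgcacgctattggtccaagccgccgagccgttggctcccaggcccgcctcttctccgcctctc
Phf1 held 4 GC boxes and 23 CpG dinucleotides in this stretch and Rbbp7 held 2 and 34, where the median promoter held 6 CpG. High CpG was shared by the members: the promoter with the most CpG ran from 12 (Eed) to 37 (Suz12) over the 10 genes. A GC box was found in the full promoters of 7 of the 10 genes, against 38.2% of all genes. A match describes the letters and is not a site of binding, and binding at these genes was not analysed here.

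Ezh2 and Rbbp7 are known to be abundant in dividing cells, and most genes of the cell cycle lists had lower levels in the knockout libraries, although none passed the edgeR test. Of 27 S phase genes 0 passed in edgeR (8 were lower at an unadjusted p under 0.05 and 1, Chaf1a, higher, beside 16.6% of all genes in either direction; DESeq2 called 7 lower, beside 12.4%). Of these 27 genes 22 had a negative fold change and 12 did not overlap and were lower (22.3% of all genes), with a median log2 fold change of -0.37; Rrm1 and Rrm2, which make deoxynucleotides, stood at 227 and 211 against 394 and 302 CPM and at 210 and 232 against 391 and 312 CPM. Of 22 mitosis genes 0 passed in edgeR (10 were lower at an unadjusted p under 0.05, beside 16.6% of all genes in either direction; DESeq2 called 10 lower, beside 12.4%). All 22 had a negative fold change and 16 did not overlap and were lower (22.3% of all genes), with a median of -0.48; Mki67 stood at 525 and 543 against 772 and 807 CPM, and Top2a at 594 and 486 against 707 and 793 CPM. The S phase list summed to 3398 and 3658 CPM in the knockout against 5209 and 4104 in the wild type, and the mitosis list to 4018 and 3738 against 5431 and 5447 CPM. Relative to the wild-type mean, Rbbp7 was at 58.2% and 61.0% in the knockout libraries, Ezh2 at 72.0% and 87.0%, the S phase sum at 73.0% and 78.6% and the mitosis sum at 73.9% and 68.7%. The part of cell cycle genes in the values of Ezh2 and Rbbp7 was not tested.

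**Figure D4:**
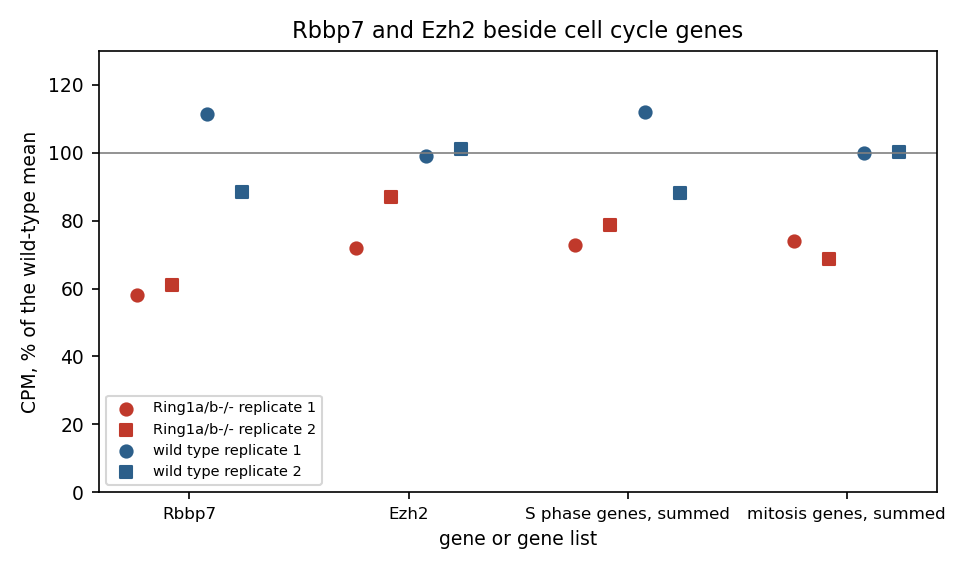
Rbbp7, Ezh2 and the summed S phase (27 genes) and mitosis (22 genes) lists in each library, as CPM in % of the mean of the wild-type libraries (line at 100). All knockout points (red) lie below all wild-type points (blue) in each column, and the wild-type pair is spread apart for Rbbp7 and the S phase sum.

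Genes that share Rbbp7 or act with or against PRC2 did not pass the edgeR test either, where 0.0609% of all genes did. As limma-voom called 0 of all 13134 genes, it could not set these lists apart. Of 17 genes of complexes that hold Rbbp4 or Rbbp7, 0 passed, 6 had a positive and 11 a negative fold change, and the median was -0.23. At an unadjusted p under 0.05 in edgeR there were 2, Hat1 (lower) and Chaf1a (higher), beside 16.6% of all genes tested. DESeq2 called 1, Hat1, beside 12.4% of the genes it adjusted. Chd4, the NuRD remodeller, stood at 324 and 304 against 306 and 335 CPM, and Gatad2a at 248 and 206 against 255 and 280 CPM. Of 4 genes that remove the methyl mark or place acetyl on lysine 27 of H3, 0 passed; the acetyltransferases Crebbp and Ep300 stood at 277 and 272 against 226 and 250 CPM and at 226 and 218 against 220 and 224 CPM. All 8 genes that write or erase methylation on lysine 36 of H3, a mark that inhibits PRC2, had a positive fold change with 0 passing and a median of 0.22; Nsd1 stood at 502 and 483 against 500 and 457 CPM and Nsd2 at 316 and 233 against 259 and 284 CPM. Of 9 tested genes of the deubiquitinase that removes the PRC1 mark, 0 passed, with a median of 0.01; Ogt stood at 439 and 394 against 377 and 341 CPM and Asxl2 at 255 and 242 against 248 and 329 CPM. Of 16 PRC1 genes 0 passed, 12 had a positive fold change and the median was 0.30, with Phc3 at 241 and 211 against 208 and 193 CPM. In the last 4 of these lists 0 genes had an unadjusted p under 0.05 in edgeR and DESeq2 called 0.

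**Figure D5:**
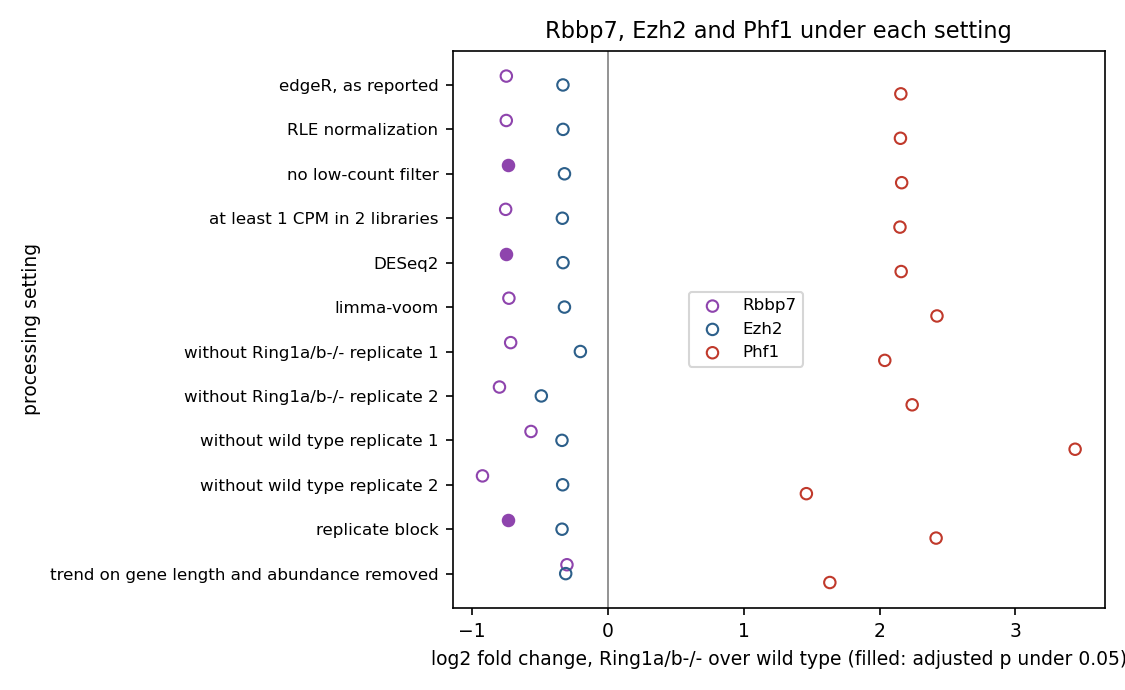
Log2 fold change of Rbbp7, Ezh2 and Phf1 (Ring1a/b-/- over wild type) under the reported edgeR fit and 11 other settings; filled points have an adjusted p under 0.05. Each gene keeps its sign in all 12, Rbbp7 is filled in 3, and Phf1 ranges from 1.46 to 3.44.

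Of 9 tested neighbours of the 4 members whose libraries separated, 6 had a fold change of the same sign as their member: 2 of 2 for Ezh1, 2 of 2 for Ezh2, 1 of 2 for Phf1 and 1 of 3 for Rbbp7. Over all genes tested 52.3% had a positive fold change. Phf1 lies between Kifc5b and Cuta in the GRCm38.p6 annotation, without overlap. Kifc5b, which has a near copy in Kifc1, stood at 23.6 and 17.2 CPM in the knockout against 8.73 and 6.34 in the wild type, and Cuta at 96.1 and 92.6 against 118 and 121 CPM. Ezh2 lies between Cul1 (169 and 130 against 193 and 198 CPM) and Pdia4 (141 and 143 against 201 and 147 CPM), and Ezh1 between Cntnap1 (51.1 and 62.4 against 36.1 and 26.4 CPM) and Ramp2 (32.7 and 45.3 against 25.4 and 30.03 CPM). Rbbp7 lies between Reps2 (9.89 and 1.618 against 13.7 and 0.667 CPM) and Syap1 (45.02 and 35.7 against 24.3 and 29.4 CPM), and Txlng is given above. In edgeR 0 of the 9 passed and 0 had an unadjusted p under 0.05, beside 0.0609% and 16.6% of all genes. DESeq2 called 0 of them, beside 12.4%, and limma-voom called 0 of all 13134 genes. Beside other members, DESeq2 called Rpl5 next to Mtf2 (adjusted p = 3.94e-05) and Dtnbp1 next to Jarid2 (adjusted p = 0.0314). Rpl5 stood at 253 and 188 CPM in the knockout against 437 and 404 in the wild type (edgeR adjusted p = 0.147). Dtnbp1 stood at 40.2 and 36.5 against 15.9 and 13.7 CPM (edgeR adjusted p = 0.278). The sources used here do not say whether counting used strand.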

How the data were processed

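Per the submitters' processing notes, the build was mm9 and the tools included HTSeq 0.7.2, TopHat2 2.1.1, Picard 1.62 and DESeq2; the sources used here do not give their roles, the annotation or the strand setting. The authors deposited whole-number counts per gene symbol without normalization, and a comparison table with p-values, a log2 fold change, its standard error and Wald statistic (each a score here) and the mean signal after normalization, per the file headers. Its marks, read from the file, begin at a log2 size of 1 and reach an adjusted p of 0.0998. Peak lists were not used, since no mm9 annotation was used here.

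The counts went into edgeR 4.0.16 under R 4.3.3 (filterByExpr defaults, TMM, robust glmQLFit, glmQLFTest, genotype only), Benjamini-Hochberg adjusted over all genes, threshold 0.05. CPM use TMM-scaled library sizes; SE is the fold change over the square root of F. Alternatives used DESeq2 1.42.0, limma 3.58.1 (voom), other filters, RLE scaling, left-out libraries, a replicate block and a loess trend on gene length and abundance; length was the genomic span in GRCm38.p6 RefSeq, known for 99.6% of genes. Ratios of counts within a library were tested by exact permutation. Shares have Wilson and single counts exact Poisson intervals (scipy 1.17.1, Python 3.11.15). The code of the fit was run on simulated counts with known changes, which were not matched to the replicate spread of these libraries.

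The members, lists and tests were chosen with earlier results of these data known. Named beside the members were both targeted genes and, from each related list, genes past the threshold or, with none, the 2 of highest mean CPM. From the lists of cell type markers, genes past the threshold are named. Lgr5, Nfatc1, Krt15, Cd34, Dcn, Cd207, Cd3e, Tek, Pecam1, Cdh5, Flt1, Chaf1a, Hat1, Rpl5 and Dtnbp1 were named after their values were seen. So were Sox9, Pdgfra, Pdgfrb, Kit, Mlana, Pmel, Kdm5d, Eif2s3y and Uty. List genes absent under their symbol were found by RefSeq synonyms (4 genes).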

Additional observations from a re-analysis of the deposited data

How the results depend on the processing

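With 2 libraries a genotype, counts of calls depended on the setting. Over all genes edgeR called 8 as reported, 802 with no low-count filter, 1 with at least 1 CPM in 2 libraries, 1 with the length and abundance trend taken out and 0 to 60 with a library left out; DESeq2 called 1792 and limma-voom 0 (1956 at an unadjusted p under 0.05). Of the PRC2 genes 1, Rbbp7, passed in place of 0 with no low-count filter and in DESeq2. The replicate numbers are not said to pair samples, and same-numbered libraries deviated from their group means with a correlation of -0.14; with the replicate number as a block edgeR called 416 genes, among them 1 PRC2 gene, Rbbp7 (adjusted p = 0.0218). The median log2 fold change of the PRC2 genes ran from -0.186 to 0.0712 with a library left out. Signs turned for Jarid2 (-0.0064 to 0.242 with a library left out, -0.147 with the trend taken out), Aebp2 (-0.165 to 0.463 with a library left out) and Phf19 (-0.0677 with the trend taken out). Ezh1, Ezh2, Eed, Suz12, Mtf2, Phf1 and Rbbp7 kept their sign in all 11 alternatives. The 7 and 24 wild-type counts of Phf1 limit its fold. The cause of these differences was not tested.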
